A study of Sus scrofa with 2 samples.

Results

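Antigen processing and presentation genes were read out in whole endometrium, the inner lining of the uterus. The tissue came from 2 artificially inseminated Yorkshire pigs of 1 commercial herd, killed on day 18 of gestation (YK18), with 1 RNA-seq library for each. Both pigs were of the same condition, and the uterine horns had been flushed with saline before the tissue was taken. Day 32 and the Meishan breed were not analysed here. The 10 genes were set by name. The class I genes were B2M, TAP1, TAP2, TAPBP, PSMB8, PSMB9 and PSMB10, and the class II genes were CIITA, CD74 and SLA-DRA. The values are RPKM, which are reads scaled to the length of the transcript and the size of the library, with 1 value per transcript. Where a pair of values is given, replicate 1 comes first. A RefSeq accession tied 8 of the 10 genes to a row, out of 11063 genes with a row. Levels were compared on the scale log2(RPKM + 1), and no test was possible with 2 pigs of 1 condition.

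Class I molecules show peptides made inside a cell. The proteasome cuts proteins, the TAP transporter carries the peptides into the endoplasmic reticulum, and tapasin helps to load them onto a heavy chain held by beta 2 microglobulin. Class II molecules, found mainly on macrophages, dendritic cells and B cells, show peptides taken up from outside. In the pig, trophoblast secretes interferons around attachment, and interferon gamma is a known inducer of both classes. In pigs the class I and class II genes are called swine leukocyte antigens (SLA).

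SLA-DRA, the alpha chain of the class II molecule DR, was the most abundant of the genes in both pigs. It was at 3446 and 4349 RPKM, above 98.5% and 98.9% of the genes with reads in both libraries. PSMB10, an inducible catalytic subunit of the proteasome, was next at 492.3 and 499 RPKM. TAPBP, which encodes tapasin, was at 171.9 and 143.6 RPKM. B2M, the light chain of every class I molecule, was at 53.3 and 77.4 RPKM. TAP2, the second chain of the peptide transporter, was lowest at 36.2 and 31.4 RPKM. The order of these 5 genes was the same in both pigs, and the 2 values of a gene did not overlap with those of its neighbours in the order. TAP1, PSMB8 and PSMB9 were listed at 0 in both pigs, and no row was matched to CIITA or CD74. Of 38222 mRNA rows, 16072 were matched to a gene symbol. A gene without a row may thus be among the unmatched rows, as may other transcripts of a gene at 0. Here and below, no row means no matched row.

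**Figure D1:**
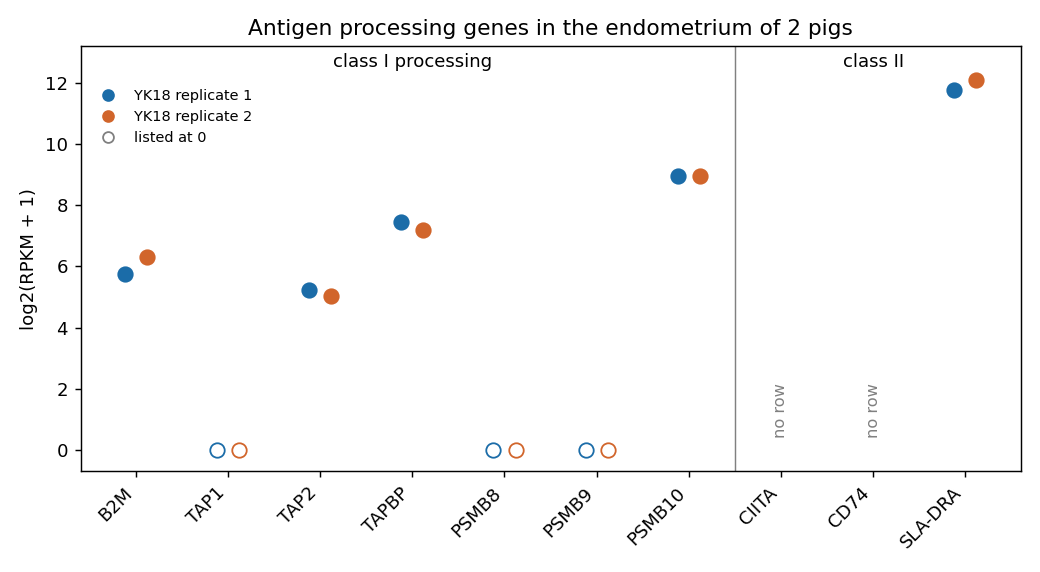
Level of each gene in log2(RPKM + 1), with 1 point per library and open points for genes listed at 0. SLA-DRA lies above all class I genes in both libraries, TAP1, PSMB8 and PSMB9 are at 0, and CIITA and CD74 had no row.

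The means over the pigs were 3897 ± 638 RPKM for SLA-DRA, 495.7 ± 4.74 RPKM for PSMB10, 157.7 ± 19.99 RPKM for TAPBP, 65.4 ± 17.0 RPKM for B2M and 33.8 ± 3.46 RPKM for TAP2 (SD, n = 2). The spread between the pigs was small for PSMB10 and large for B2M, relative to the means. The reads behind these values, worked out from the steps of the RPKM, were 6433 and 7635 for SLA-DRA, 386 and 368 for PSMB10, and 453 and 356 for TAPBP. For B2M they were 41 and 56 and for TAP2 59 and 48. These are the smallest whole reads that fit, with a length of 103 nt for B2M and 353 nt for TAPBP, so the true reads and lengths are these or a multiple, and reads are given in this way throughout. Reads of different genes were therefore not compared with each other. Over all matched rows above 0 the median of such lengths was 242 nt, so an RPKM may rest on a part of the transcript, and levels of different genes hold only for the lengths the authors used. TAPBP overlaps ZBTB22 in the annotation, and without knowing whether strand was used their reads cannot be told apart.

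A gene at 0 is described here only as listed at 0. Of all 11063 genes with a row, 26.6% were listed at 0 in both libraries, and 3 of the 8 genes with a row is 37.5%. The 3 genes lie side by side in the annotation of Sscrofa11.1, in the order SLA-DOB, TAP2, PSMB8, TAP1 and PSMB9. SLA-DOB, a class II chain, was at 0 as well, so TAP2 was the only one of these 5 neighbours with reads. Each has 1 row. Among the genes with 1 row 21.1% were at 0 in both libraries, and among those with several rows 42.7%. A gene that no cell can do without was at 0 as well. PSMA6, an obligate subunit of every proteasome core, was listed at 0 in both pigs, while PSMA2 was at 2216 and 2170 RPKM. The annotation gives the symbol B2M to 2 neighbouring genes, and only 1 of them had a row. Whether reads shared by the 2 copies were left out is not known, so the level of B2M is uncertain. The counting of reads that fall on more than 1 transcript was not given in the sources used here.

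The pigs were compared with each other for the spread of each level. None of the 5 genes with a mean of at least 1 RPKM differed 2-fold between the libraries, whereas 10.6% of all 6474 such genes did. With 5 genes, a count of 0 is close to that background and is no result about them. SLA-DRA was higher in replicate 2 by 0.34 on the log2(RPKM + 1) scale, and its ratio of reads over the library totals was 1.26 (95% exact binomial interval 1.22 to 1.30). B2M was also higher in replicate 2, by 0.53, with a ratio of 1.45 (0.953 to 2.23). TAPBP was lower in replicate 2, at a difference of -0.26 and a ratio of 0.836 (0.725 to 0.962). For TAP2 the difference was -0.20 and the ratio 0.865 (0.578 to 1.29), and for PSMB10 they were 0.02 and 1.01 (0.876 to 1.17). The ratios hold for any multiple of the reads, but the intervals are those of the smallest reads and would be narrower at a multiple, so none of them is read as holding or leaving out a ratio of 1. They take in the error of counting alone, as PCR copies are not separate molecules, and leave out the spread between pigs. Over all 6474 genes the difference had a median of 0.07 and an SD of 0.67, and 58.0% of the genes were higher in replicate 2. In all, 43.0% of the genes differed by at least as much as SLA-DRA. For B2M that share was 26.8%, for TAPBP 52.1%, for TAP2 60.1% and for PSMB10 95.6%. Against all 6474 genes, none of the 5 genes thus stood apart from the usual difference between these pigs. The 5 genes lie well above the filter of 1 RPKM, so this background is not like-for-like. With a filter of 5 RPKM, 6.99% of all genes differed 2-fold.

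**Figure D2:**
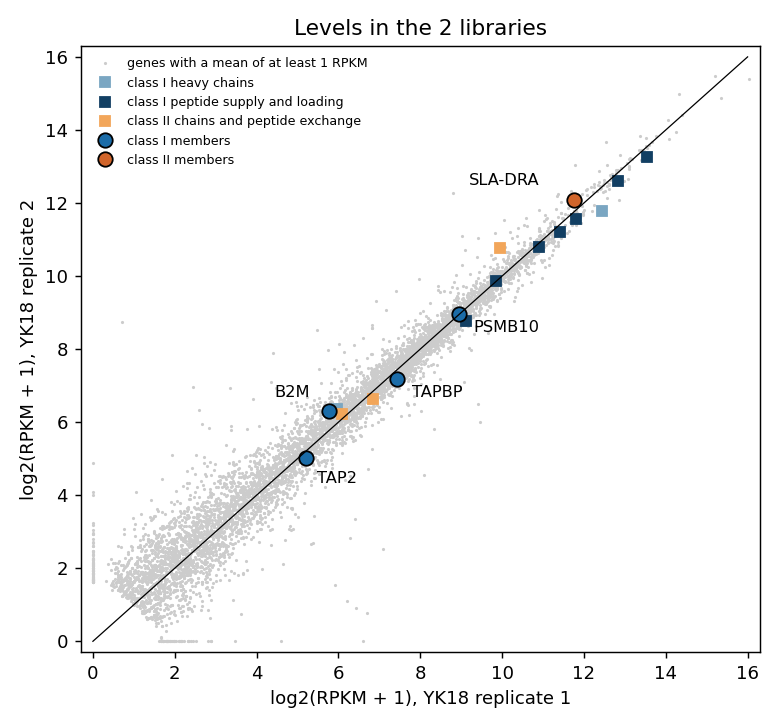
Level of each gene in replicate 1 (x axis) and replicate 2 (y axis), both in log2(RPKM + 1), for all 6474 genes with a mean of at least 1 RPKM in grey. The 5 genes above 0 (circles) lie within the spread of the grey points, and of the squares, which are class I heavy chains, class I loading genes and class II chains, SLA-DQB1 lies farthest above the line of equal levels and SLA-3 farthest below it.

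Class I processing was set against class II in each library. The median log2 level of the 7 class I genes, genes at 0 included, was 5.22 in replicate 1 and 5.02 in replicate 2. With 3 of the 7 genes at 0, this median is the level of TAP2, the lowest class I gene above 0. The only class II gene with a row was SLA-DRA, at 11.75 and 12.09 on the same scale. The difference, class I minus class II, was thus -6.53 and -7.07, with a mean of -6.80 ± 0.38 (SD, n = 2). With the genes above a mean of 1 RPKM only, which are 4 of class I and 1 of class II, it was -5.15 and -5.35. Class II rested on SLA-DRA alone. With the genes of the wider lists below that had a mean of at least 1 RPKM, an alternative chosen after seeing the data, the class I median was the higher one, by a mean of 1.31. The main difference is therefore that of TAP2 against SLA-DRA and does not describe the classes as a whole.

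The class I chain of events was followed with a wider list, beginning with the proteasome. Under interferon gamma PSMB8, PSMB9 and PSMB10 take the places of PSMB5, PSMB6 and PSMB7 in that order, which gives the immunoproteasome. PSMB5 was at 339.8 and 364.8 RPKM, PSMB6 at 797.7 and 787 RPKM, and PSMB7 at 937 and 1031 RPKM. These 3 constitutive subunits were thus above 0 in both pigs, while of the inducible ones only PSMB10 was. PSMB10 stood at 0.525 of the RPKM of PSMB7 in replicate 1 and at 0.484 in replicate 2, a log2 difference of -0.99 ± 0.08 (SD, n = 2). With PSMB8 and PSMB9 at 0, no fold is given for them. The median over all 3 pairs, -8.46 on the log2 scale, is the value of PSMB8 against PSMB5 and is set by the zero and the pseudocount of 1. Of the 11 other core subunits, 8 were above 0 in both pigs, between PSMA7 at 571 and 598 RPKM and PSMA2. PSMA3 had 1 read in replicate 1 and none in replicate 2, PSMA6 was at 0 and PSMB2 had no row. None of the 3 constitutive and 8 other core subunits with a mean of at least 1 RPKM differed 2-fold between the pigs, which is near the 10.6% over all genes at this number of genes and is no result about them. The median differences were 0.10 and -0.03.

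**Figure D3:**
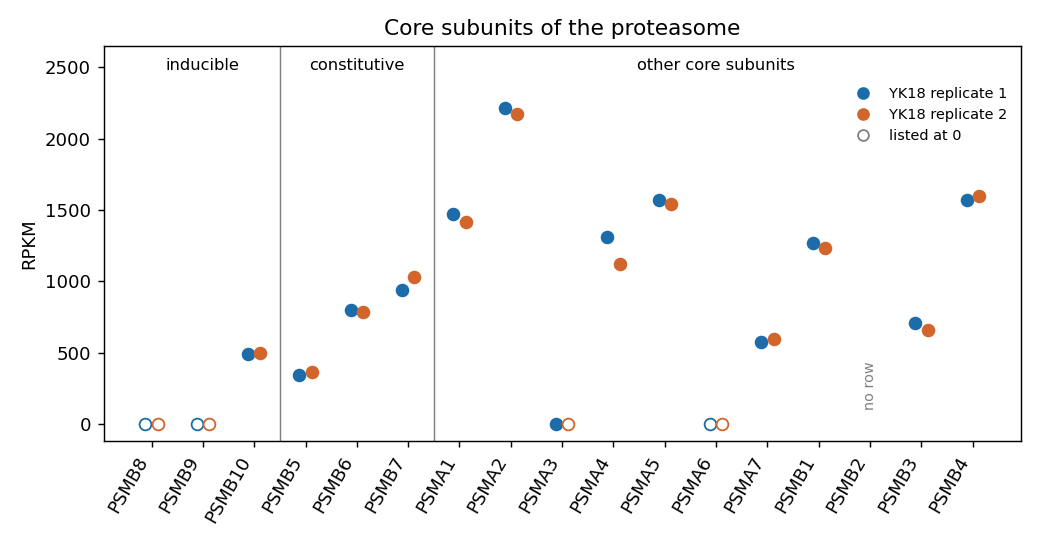
RPKM of the proteasome core subunits in both libraries, with open points for genes listed at 0. PSMB10 lies above PSMB5 and under PSMB6 and PSMB7, and PSMB8, PSMB9 and PSMA6 are at 0.

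Genes that supply and load class I peptides ranged from 0 to 11854 RPKM in replicate 1. Of 10 genes on this list, 7 were above 0 in both pigs, and those had a median of 2738 and 2363 RPKM. PDIA3, a thiol oxidoreductase of the peptide loading complex, was highest at 11854 and 9884 RPKM. The chaperones calreticulin (CALR) and calnexin (CANX) were at 7326 and 6198 RPKM and at 3566 and 3005 RPKM. These 3 proteins serve the folding of many glycoproteins, so their level is not one of antigen presentation alone. PSME1 and PSME2, the chains of the proteasome activator PA28, were at 1924 and 1760 RPKM and at 2738 and 2363 RPKM. ERAP2, which trims peptides in the endoplasmic reticulum, was at 552 and 433.6 RPKM. PSME3 was lowest of the list with 0 and 1 read, TAPBPL was at 0 and ERAP1 had no row. On this list 6 of 7 genes were higher in replicate 1, where 58.0% of all genes were higher in replicate 2, and the median difference was -0.24 against 0.07 over all genes. None differed 2-fold, against 10.6% of all genes. At only 7 genes, neither these counts nor the median are read as a result about the list. The 7 genes also lie far above the filter of 1 RPKM, with ERAP2 the lowest of them. When the filter was raised to 5 RPKM, the share of all genes was 6.99%, so 10.6% is not a like-for-like background here.

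The heavy chains of class I showed a wide range. SLA-3, a classical chain, was at 5599 and 3486 RPKM, a difference of -0.68. The light chain B2M, its partner in the protein, was at 53.3 and 77.4 RPKM. SLA-8 was at 61.0 and 80.8 RPKM, SLA-7 had 2 reads and 1 read, and SLA-6 was at 0. SLA-1, SLA-2, SLA-5 and SLA-11 had no row. A further class I gene, LOC100513601, carries SLA-1 among its synonyms in the annotation and was picked after its values had been seen. It was at 0.629 and 426 RPKM. One of its rows had 0 reads in replicate 1 and 199 in replicate 2, and the other had 1 and 23 reads. Class I genes are near-identical copies and vary between animals, so reads may have been divided among them and each single value is uncertain.

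On the class II side, each complex looked at had a level for only 1 of its chains. SLA-DQB1, the beta chain of DQ, was at 982 and 1736 RPKM, while its partner SLA-DQA1 had 0 reads and 1 read. SLA-DRB1, the partner of SLA-DRA, was listed at 0 in both pigs, and other DR beta genes were not looked at. SLA-DMB, a chain of the peptide exchanger DM, was at 114.1 and 99.1 RPKM, and SLA-DMA was at 0. SLA-DOA, a chain of the DM inhibitor DO, was at 66.8 and 74.3 RPKM, and SLA-DOB was at 0. With TAP1 and TAP2, all 5 complexes of the SLA region that were looked at had 1 partner above 0 in both pigs, lowest for TAP2, and 1 partner with a mean under 1 RPKM. PSME1 and PSME2 of PA28, whose genes lie outside the SLA region, were both present. Genes under that level are common, as only 6474 of all 11063 genes with a row had a mean of at least 1 RPKM. With PA28 as the only complex outside the SLA region, the pattern is not read as a trait of that region. The pattern was noticed in the data and its cause was not tested. The 2 chains of such a complex are needed together, so the zeros and the values of single chains cannot be read as amounts of a complex.

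**Figure D4:**
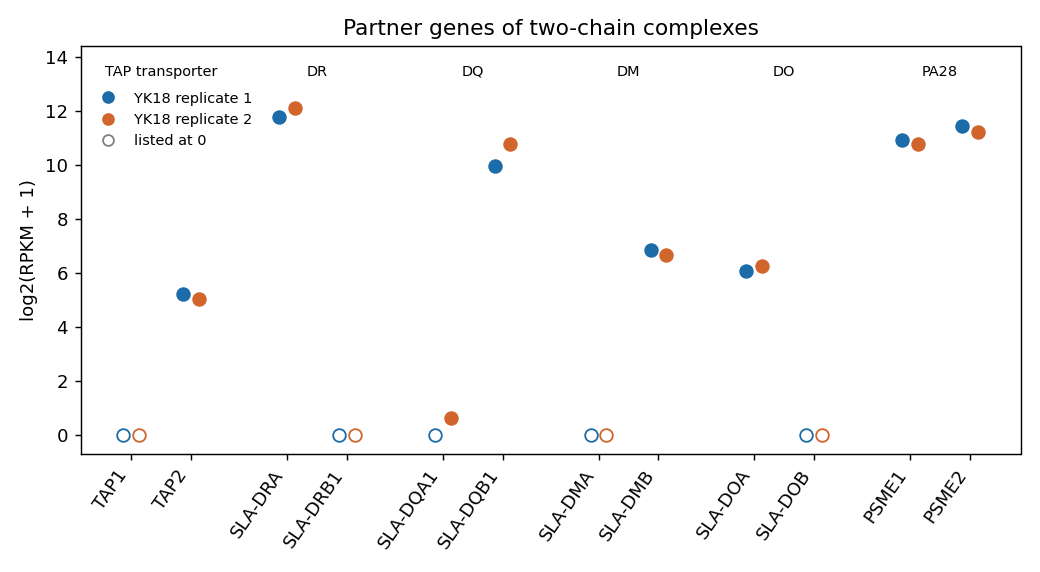
Level in log2(RPKM + 1) of both partner genes of 6 complexes in each library, with open points for genes listed at 0. In the transporter TAP and in DR, DQ, DM and DO 1 partner is at or near 0 in both libraries, and in PA28 both partners are present.

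Of the 4 class II chains above 0 in both pigs, 3 were higher in replicate 2, which is near the 58.0% of all genes. Their differences were 0.82 for SLA-DQB1, 0.34 for SLA-DRA, 0.15 for SLA-DOA and -0.20 for SLA-DMB. The summed level of the class II genes, SLA-DRA included, was 4609 and 6258 RPKM, a ratio of 1.36. That of the 7 set class I genes was 754 and 751 RPKM, a ratio of 0.997. With heavy chains and peptide loading added it was 35295 and 28905 RPKM, a ratio of 0.819, and most of that sum and of its difference lay in PDIA3, CALR, CANX and SLA-3. None of the genes of these lists with a mean of at least 1 RPKM differed 2-fold, against 10.6% of all genes. At so few genes this count is no result about them. LOC100513601, at 0.629 and 426 RPKM, is on none of the lists and is left out of the class I sums and of this count. The endosomal enzymes that prepare class II peptides were led by IFI30, a thiol reductase, at 1125 and 1305 RPKM, and by cathepsin D (CTSD) at 303.5 and 314.8 RPKM. CTSL had 1 read in each library, LGMN was at 0 and CTSS had no row.

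Genes that control the classes were compared last. NLRC5, the transactivator of class I genes, was at 506.4 and 542 RPKM, a difference of 0.10. Its class II counterpart CIITA had no row. IRF1, a transcription factor induced by interferon gamma, was at 685 and 983.6 RPKM, a difference of 0.52. IRF8, a factor of myeloid and B cells, rested on 88 and 291 reads and was at 68.9 and 242.3 RPKM, a ratio of 3.52 (2.76 to 4.52). RFX5, a part of the factor that binds class II promoters, was lowest at 3.10 and 9.03 RPKM. IRF8 and RFX5 were the 2 of 7 regulators that differed 2-fold, against 10.6% of all genes, and 6 of the 7 were higher in replicate 2, against 58.0%. With 7 genes, neither count is read as a result about the list. IFNG, which pig trophoblast secretes at this stage, was at 681.6 and 89.1 RPKM, and its part in the levels of these genes was not tested. With 1 pig at each level of IFNG, no relation can be read.

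**Figure D5:**
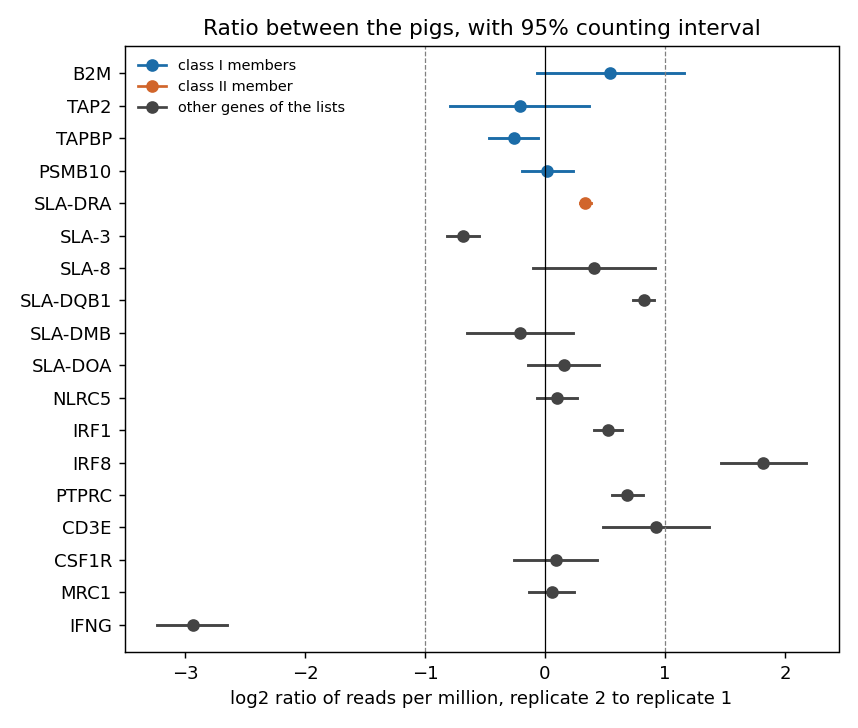
Log2 ratio of reads per library total, replicate 2 to replicate 1, with its 95% exact binomial interval (counting error only, at the smallest reads that fit) and dashed lines at 2-fold, in blue and orange for the 5 set genes above 0 and in grey for other genes. The 5 points lie within 2-fold, IRF8 lies above it and IFNG below it. The grey genes are a selection from the lists and leave out CD163, MS4A1 and CD79B.

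Markers of leukocytes were summed beside the class II genes. Of 15 markers of antigen presenting cells, 10 were above 0 in both pigs, 3 (AIF1, CD83 and CD79A) were at 0, and CD68 and ITGAX had no row. Their summed level was 1088 and 1421 RPKM, a ratio of 1.31 against 1.26 for SLA-DRA. PTPRC, which is found on all leukocytes, made up most of this difference, at 526 and 845.5 RPKM. The macrophage genes CSF1R and MRC1 were at 104.3 and 110.9 RPKM and at 387.1 and 402 RPKM, and CD163 was at 34.7 and 20.8 RPKM. Of the 10 markers, 7 were higher in replicate 2, against 58.0% of all genes, while CD163, MS4A1 and CD79B were higher in replicate 1. At only 10 genes this count is no result about the list. MS4A1 was at 4.71 and 3.34 RPKM and CD79B at 3.86 and 1.37 RPKM. CD79B, with 3 reads and 1 read, was the only 1 of the 10 to differ 2-fold, which is near the 10.6% of all genes. The part of leukocytes in the level of SLA-DRA was not tested. In whole tissue, more cells of a type and more RNA per cell cannot be told apart.

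The tissue label was checked against marker lists. EPCAM, an epithelial adhesion protein, was at 5106 and 5128 RPKM and COL3A1, a stromal collagen, at 67098 and 42857 RPKM. The endothelial receptor KDR was at 3764 and 3183 RPKM. The lowest markers of these lists were CLDN4 at 136.8 and 169.3 RPKM, COL1A2 with 1 read and none, and PECAM1 at 191.9 and 159.3 RPKM. In all, 5 of 6 epithelial, 4 of 6 stromal and 3 of 4 endothelial markers were above 0 in both pigs, with KRT8 at 0. The stromal sum had a ratio of 0.639, replicate 2 to replicate 1, and was nearly all COL3A1. Of the 4 stromal markers above 0 in both pigs, COL3A1 and LUM were lower in replicate 2, at ratios of 0.639 and 0.577. LUM was at 2122 and 1224 RPKM. DCN and VIM were higher in replicate 2, at ratios of 1.29 and 1.28, with VIM on 34 and 41 reads. Of 5 trophectoderm markers GATA3 and ELF5 were at 0 and CDX2 had 7 reads and 1 read. TFAP2C was at 17.5 and 14.1 RPKM, a ratio of 0.802. IFNG made up most of the summed 700.6 and 103.4 RPKM. The recovered totals were 7466979 reads for replicate 1 and 7023108 for replicate 2.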

How the data were processed

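Total RNA of whole endometrium was sequenced, with 1 library per pig. The authors counted reads with HTSeq 0.6.1 and normalized them to the RPKM that were deposited, 1 column for each pig. The aligner, genome build, strand and treatment of shared reads were not given in the sources used here. Because the values are not counts, no count model was fitted. Rows were matched to symbols of the RefSeq annotation of Sscrofa11.1 by accession without version (16072 of 38222 mRNA rows), and the rows of a gene were summed. Coordinates of the annotation were used only for the order and overlap of neighbouring genes. Differences are log2(RPKM + 1), with a filter of a mean of at least 1 RPKM.

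Library totals and reads were recovered from the steps of low values, trying lengths up to 20000 nt, and whole reads, to within the rounding of the deposited values, were found for 100% of rows above 0. Totals are therefore estimates from the files. The recovery was also run on simulated data, and no outcome of that run is used here as support for the reads. Intervals are exact binomial at 95%, from the smallest reads that fit. Analyses used Python 3.11.15, pandas 2.3.3, numpy 2.4.6, scipy 1.17.1 and matplotlib 3.10.9.

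The genes and lists were chosen with earlier results of these data known. The text names the set genes and the highest and lowest gene above 0 of each list, with the constitutive proteasome subunits, and any other gene was named with its values in view. Some genes under this rule are not reported here. No gene of like pattern is named, as 2 libraries give no pattern. Alternatives were other pseudocounts, scalings, filters, rows, accession matching, class members and each replicate left out.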

Additional observations from a re-analysis of the deposited data

How the results depend on the processing

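No paired analysis was possible because both libraries are of 1 condition. The mean class I minus class II difference of -6.80 ran from -7.07 to -6.53 across the values that each left out one replicate. Without B2M it was -9.36, since the median of 6 genes then averages TAP2 with a gene at 0. With only genes of a mean of at least 1 RPKM it was -5.25, since the 3 genes at 0 drop out. With all genes of the wider class I and class II lists at a mean of at least 1 RPKM, chosen after seeing the data, it turned to 1.31. Leaving out CIITA changed nothing, since it had no row.

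The median of the 3 proteasome pairs, -8.46, ran from -8.51 to -8.41 without one replicate. It was -11.78 with a pseudocount of 0.1 and -15.10 with 0.01, -6.38 when the RPKM of a library were made to add up to 1000000, and -5.31 with the version number required, when PSMB8 drops out. In recovered reads scaled to the library total, chosen after seeing the data, it was -6.79, at the smallest reads that fit and so only up to a multiple for each gene. For PSMB10 and PSMB7 alone, also chosen then, it was -0.99, since PSMB8 and PSMB9 are at 0. The count of set genes that differed 2-fold was 0 under all settings run, where the share over all genes ran from 4.53% to 15.1%. The depth behind a gene is known only up to a multiple, and 2 pigs give the spread only roughly.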

Other observations

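Lists beside the pathway gave the following values. Of 10 genes of T and natural killer cells, 3 were above 0 in both pigs and 5 were listed at 0 (CD3D, CD3G, CD4, CD8A and NCAM1). CD3E, a chain of the T cell receptor complex, was highest at 67.5 RPKM in the first pig and 127.8 RPKM in the second. CD247, another chain of that complex, was lowest with 0 reads and 1 read. The killing protein PRF1 was at 8.74 and 10.04 RPKM. The list summed to 88.5 and 150.9 RPKM, and most of that sum and of its difference lay in CD3E. Among 3 genes outside the classical pathways FCGRT, the neonatal Fc receptor, whose light chain is also B2M, was at 1411 and 1372 RPKM. CD1D, which presents lipids, was listed at 0, and MR1 had no row.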
